A study of Homo sapiens with 6 samples.

Results

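C10orf54 and the B7 checkpoint ligands are cell surface proteins of the immunoglobulin family through which a cell restrains or helps the lymphocytes it meets. C10orf54 is the older symbol of VSIR, the gene of VISTA, an inhibitory ligand known mainly from myeloid cells that also takes part in the clearance of dying cells. CD274 and PDCD1LG2 encode PD-L1 and PD-L2, the ligands of the inhibitory receptor PD-1. CD80 and CD86 engage CD28 and CTLA-4, ICOSLG engages ICOS, and CD276 and VTCN1 encode the tumour-associated members B7-H3 and B7-H4.

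The 8 genes, of 40205 gene symbols in the count table, were chosen by family membership around C10orf54, whose lower counts after treatment in these same samples were already known. The difference of C10orf54 is therefore given as a description with no test. HepG2, a cell line from a human liver tumour, was measured by RNA-seq in 3 control samples (Control-1 to Control-3), which the labels give no agent, and in 3 samples exposed for 24 h to CLs (CLs-1 to CLs-3). CLs are cationic liposomes, here vesicles of the positively charged lipid DOTAP, cholesterol and a PEG lipid. The labels give the dose as 120 μM, whereas the text of the study gives the same figure with both that unit and μg/ml. The libraries held from 11418527 to 13998946 reads assigned to genes. Levels are CPM, counts per 1000000 reads of a library with its total scaled by the TMM method, with the SD over the 3 samples of a group. In any one library, 3 counts, taken as the lowest level the depth resolves (the floor), correspond to 0.208 to 0.263 CPM, a limit that covers counting error only.

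The label of the cells was checked against 21 genes that define hepatocytes and HepG2 cells, and the counts went against it. ALB had 0 counts in 5 of the 6 libraries and 8 in CLs-1, AFP had at most 1 count in any library, and TTR, APOC3 and APOH had 0 counts in all 6. The 21 genes together held 24 to 46 counts in the 5 libraries other than CLs-1 and 223 in CLs-1. The cells are therefore called by their label only. CLs-1 also stood apart by 942 counts on 7 markers of red cells and steroid-producing cells, against 15 to 33 counts in the other libraries, so the 3 members that could be tested are also given without it.

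Of the 8 genes, 3 had enough reads to be tested (C10orf54, CD276 and ICOSLG), CD274 had a few reads, PDCD1LG2 had 2 reads in all, and VTCN1, CD80 and CD86 had none. RefSeq windows of the 250 bases before the transcription start, on GRCh38.p14, were found for 7 of the 8 genes, with 2 windows each for CD276 and CD86. The submitters' processing notes name another build, hg19, and no coordinates were carried over. The following 4 windows stand for the gene that was lower after treatment, a gene with many reads in both groups, a gene near the floor and a gene without a read, written in the direction of transcription with each CpG in capitals.
C10orf54 (chr10:71773521-71773770, minus strand): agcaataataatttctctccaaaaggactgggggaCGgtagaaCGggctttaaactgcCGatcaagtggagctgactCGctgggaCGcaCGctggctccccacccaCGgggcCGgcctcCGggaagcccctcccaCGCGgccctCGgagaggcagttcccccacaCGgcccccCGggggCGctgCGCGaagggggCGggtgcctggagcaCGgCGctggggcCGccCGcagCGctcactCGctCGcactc
CD276 (first window, chr15:73684133-73684382, plus strand): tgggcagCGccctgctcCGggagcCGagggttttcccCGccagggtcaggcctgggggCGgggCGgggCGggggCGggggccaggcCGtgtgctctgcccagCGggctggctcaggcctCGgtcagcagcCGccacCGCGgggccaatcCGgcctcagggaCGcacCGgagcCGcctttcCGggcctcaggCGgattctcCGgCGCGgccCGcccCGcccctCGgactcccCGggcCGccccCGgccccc
CD274 (chr9:5450292-5450541, plus strand): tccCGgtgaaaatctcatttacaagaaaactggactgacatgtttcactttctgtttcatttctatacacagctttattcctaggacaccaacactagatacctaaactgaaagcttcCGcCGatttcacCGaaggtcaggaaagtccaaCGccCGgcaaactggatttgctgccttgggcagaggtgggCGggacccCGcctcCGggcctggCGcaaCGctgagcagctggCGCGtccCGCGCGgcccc
CD80 (chr3:119559615-119559864, minus strand): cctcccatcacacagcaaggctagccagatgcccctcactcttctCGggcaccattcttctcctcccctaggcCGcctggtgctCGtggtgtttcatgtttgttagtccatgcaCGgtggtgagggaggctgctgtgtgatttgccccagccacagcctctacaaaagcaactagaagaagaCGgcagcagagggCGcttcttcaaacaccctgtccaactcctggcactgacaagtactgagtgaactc

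The C10orf54 window held 25 CpG, more than 78.4% of all 35116 such windows, whose median was 11. The 2 windows of CD276 held 29 and 23 CpG, and that of ICOSLG held 36. The CD274 window, of the gene near the floor, held 16 CpG. In the windows of the 3 genes without a read the number was 6 for VTCN1, 6 for CD80, and 2 and 4 for CD86. The GC box GGGCGG, searched on both strands and overlapping the capitals, was found in the windows of C10orf54, CD274, CD276 and ICOSLG, and in 42.6% of all windows. It was not found in those of VTCN1, CD80 and CD86. TATAAA was found in none of the 9 windows of these genes and in 10.7% of all windows, and CACGTG in none of the 9 and in 6.34%. The interferon-type element TTCNNNGAA, also searched on both strands, was found in the CD274 window alone among them, and in 6.57% of all windows.

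C10orf54, the gene of VISTA, was lower in all 3 CLs-treated samples than in all 3 controls. It had 331, 465 and 479 counts in the controls (Control-1 to Control-3 in turn) and 103, 102 and 119 after treatment (CLs-1 to CLs-3 in turn), the order used for all counts that follow. The lowest control was 2.76 times the highest CLs-treated sample in CPM, and Control-1 was the lowest of the controls. The level was 36.7 ± 6.87 CPM (SD, n = 3) in the control group and 8.79 ± 1.65 CPM (SD, n = 3) after CLs, or 24.0% of the control mean. The log2 fold change from edgeR was -2.06 with a standard error (SE) of 0.21, which is a fold of 0.239. Only 4 of the 15047 tested genes had a lower log2 fold change. At the criteria of the study (fold change below 0.67 and adjusted p under 0.05), 0.0731% of all tested genes were called down, a share from which nothing is read for C10orf54, since it was chosen on this contrast. A complete separation with lower CLs-treated samples was seen in 6.18% of all tested genes.

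The size of the difference was also computed without single libraries. Leaving out 1 of 3 samples can hardly move it beyond the spread between replicates, so the values are a description. Without CLs-1 the log2 fold change of C10orf54 was -1.93, and over the 6 fits that each left out 1 sample it lay between -2.21 and -1.93. The spread within the groups was larger than counting alone gives. The coefficient of variation of the CPM was 18.7% in each group, whereas the mean counts allow 4.9% in the control group and 9.6% in the CLs-treated group from counting. In bulk RNA, fewer cells that express a gene and less RNA of it per cell cannot be told apart.

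**Figure D1:**
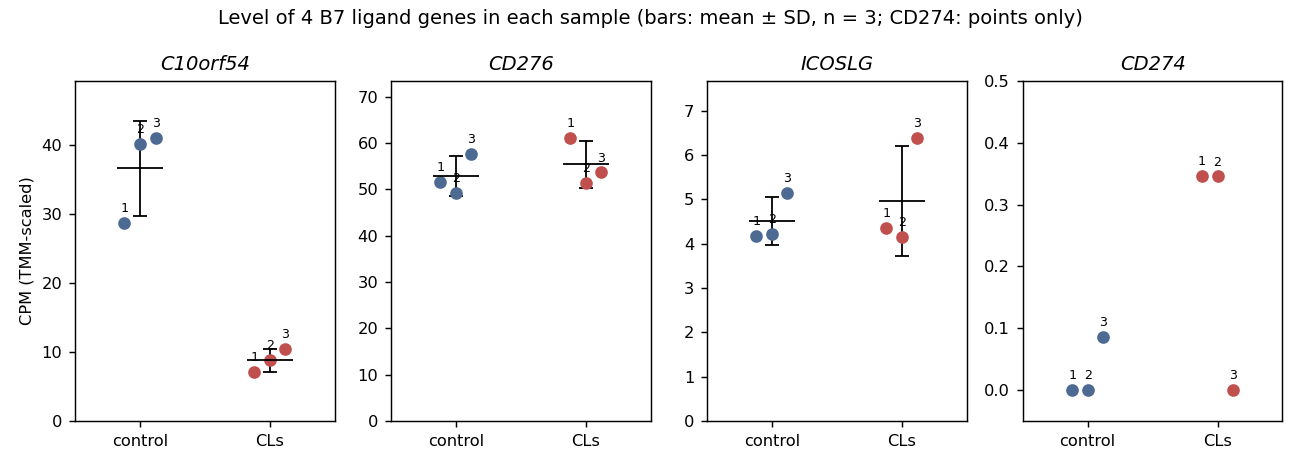
CPM of C10orf54, CD276, ICOSLG and CD274 in each sample (points numbered by replicate, black bars mean ± SD of 3 samples, one vertical axis per gene). The 3 CLs-treated samples of C10orf54 sit between 7.13 and 10.4 CPM, below the lowest control at 28.7 CPM, while the groups overlap in the other 3 genes.

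CD276, whose product B7-H3 is found on many tumour cells, had the most reads of the family and did not pass the test. Its counts were 595, 569 and 671 in the control samples and 883, 595 and 612 in the CLs-treated samples. After scaling the groups overlapped, with 52.8 ± 4.31 CPM (SD, n = 3) in the control group and 55.4 ± 5.09 CPM (SD, n = 3) after CLs. The fold was 1.05 with a 95% interval of 0.853 to 1.29 (Benjamini-Hochberg adjusted p = 0.998 over 15047 genes, quasi-likelihood test of edgeR). A change of C10orf54's size lies outside this interval, and a change within it was not detectable with these samples. Without CLs-1 the log2 fold change of CD276 was -0.0074.

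ICOSLG, the ligand of the costimulatory receptor ICOS, had fewer reads than CD276. It had 48, 49 and 60 counts in the control samples and 63, 48 and 73 counts in the CLs-treated samples, and the groups overlapped. The level was 4.51 ± 0.547 CPM (SD, n = 3) in the control group and 4.97 ± 1.24 CPM (SD, n = 3) after CLs. The fold was 1.10 with a 95% interval of 0.743 to 1.62 (adjusted p = 0.998 from the same test). Without CLs-1 the log2 fold change of ICOSLG was 0.22. Neither CD276 nor ICOSLG was called, at a background of 0.0864% of tested genes called in either direction, and neither had an unadjusted p under 0.05. DESeq2's Wald test called neither of them.

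Per length, CD276 was the highest of the 3 and ICOSLG the lowest in both groups. CPM per kb of exon was 10.1 ± 0.823 (SD, n = 3) for CD276, 7.82 ± 1.46 for C10orf54 and 0.483 ± 0.0585 for ICOSLG in the control group. In the CLs-treated group it was 10.6 ± 0.971 for CD276, 1.87 ± 0.351 for C10orf54 and 0.532 ± 0.133 for ICOSLG. The lowest control of CD276, at 9.38 CPM per kb, lay above the highest control of C10orf54, at 8.76, a narrow gap. In the CLs-treated group the highest sample of C10orf54 was at 2.22 and the lowest of CD276 at 9.81, so that the ranges were far apart. The exon lengths are those of the GENCODE annotation of GRCh38, which is not the annotation behind the counts.

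The ligands of PD-1 were near the floor. CD274 had 0, 0 and 1 counts in the control samples and 5, 4 and 0 in the CLs-treated samples. CLs-1 and CLs-2 were thus just above the floor and CLs-3 was at 0, while the controls were at 0 or 1. Summed over the groups, 9 of 37114216 counts against 1 of 35118974 gave a ratio of 8.52, with an exact 95% interval of 1.18 to 373 that covers counting error only and not the spread between samples. With no filter on low counts, the adjusted p of CD274 was 0.885 in edgeR's quasi-likelihood test over 25432 genes, so no difference was shown. PDCD1LG2 had 1 count in Control-3 and 1 in CLs-1.

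No read was counted on VTCN1, CD80 or CD86 in any of the 6 libraries. A count of 0 in 72233190 counts allows a level of up to 0.0415 CPM over all libraries. These 3 genes encode B7-H4 and the ligands through which antigen-presenting cells engage CD28 and CTLA-4.

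Receptors of B7 and related ligands, which are known from lymphocytes, were also not measured at a usable level. Of the 7 receptor genes (PDCD1, CTLA4, CD28, ICOS, TMIGD2, NCR3 and BTLA), 6 had 0 counts in all libraries and CTLA4 had 1 count in Control-3. Of 20 leukocyte markers, 16 stayed at or under 3 counts in all libraries, and PTPRC, the pan-leukocyte gene of CD45, had at most 1 count. CD68, a lysosomal protein of macrophages that other cells also make, held most of the remaining counts. It had 149 to 198 counts in the controls and 196 to 291 in the CLs-treated samples. The summed level of the 20 markers, most of it CD68, was 14.9 to 19.2 CPM in the control samples and 21.1 to 24.5 CPM in the CLs-treated samples. CSF1R, also on this list, had 8, 12 and 10 counts in the control samples and 27, 38 and 5 in the CLs-treated samples. The part of these markers in the difference of C10orf54 was not tested. The sum of 9 fibroblast and endothelial markers, most of it COL3A1, was 714.7 to 1081 CPM in the control samples and 793.5 to 934.9 CPM in the CLs-treated samples, and the groups overlapped. Within this list CLs-1 stood apart in COL1A2, a collagen chain, with 1044 counts against at most 2 in any other library, and in THY1, a surface protein of fibroblasts, with 58 against at most 1.

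**Figure D2:**
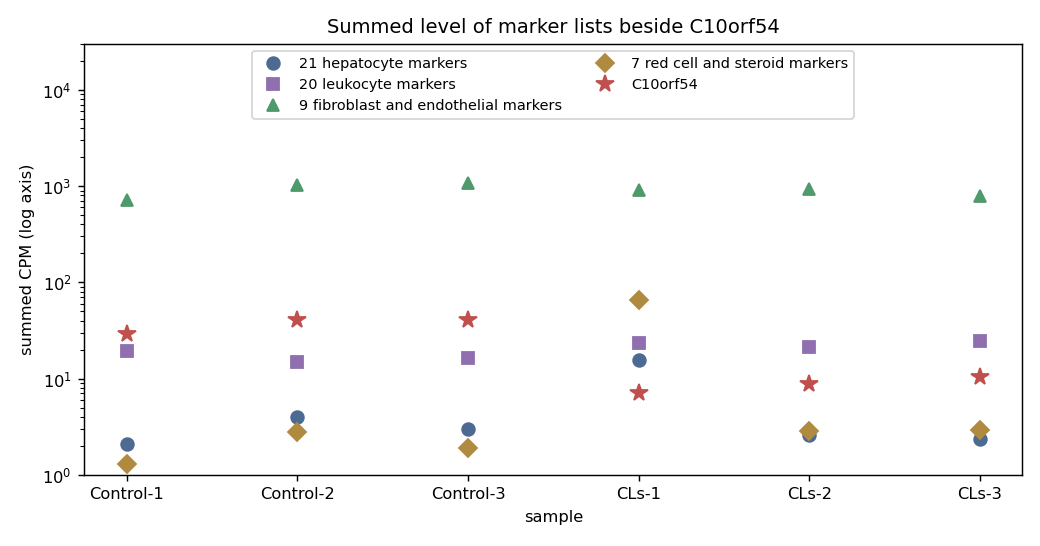
Summed CPM of 4 marker lists and the CPM of C10orf54 in each sample (log axis). Red cell and steroid markers are high in CLs-1 at 65.2 CPM, hepatocyte markers are at most 15.4 CPM in any sample, and no list is lower in all CLs-treated samples than in all controls, as C10orf54 is.

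C10orf54 lies inside CDH23, a cadherin gene of the inner ear, on the opposite strand, and shares no base with the exons of its coding transcripts in the GENCODE annotation. CDH23 had 1, 1 and 0 counts in the control samples and 0, 1 and 0 counts in the CLs-treated samples, and C10orf105, which lies in CDH23 as well, had 1 count in all. The reads counted for the host gene were thus at most 1 in any library. C10orf105 shares exon bases with CDH23, and how reads on shared bases were counted is not given. The other genes around C10orf54 did not pass the test. Of 10 neighbours 7 were tested and 0 were called, with log2 fold changes between -0.17 and 0.17 and a median of 0.07, beside 0.01 for all tested genes. PSAP, the next gene in the chromosome order and the precursor of the saposins of the lysosome, had 933.2 ± 54.9 CPM in the control group and 1049 ± 173.4 CPM in the CLs-treated group (SD, n = 3 in each). Its log2 fold change was 0.17 with, by edgeR, an adjusted p of 0.998. ASCC1 and SLC29A3, a nucleoside transporter gene, were at 0.13 and -0.17.

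Around CD274 and PDCD1LG2, 5 of 7 listed genes were tested and 0 were called, with a median log2 fold change of 0.12. PLGRKT, beside CD274, was at 0.34 (SE 0.33). KIAA1432, beside PDCD1LG2, was at -0.14 (SE 0.16), and AK3, an adenylate kinase gene, was at 0.18 (SE 0.14). JAK2, the kinase of the interferon receptor encoded in the same region, was at 0.16 (SE 0.32).

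**Figure D3:**
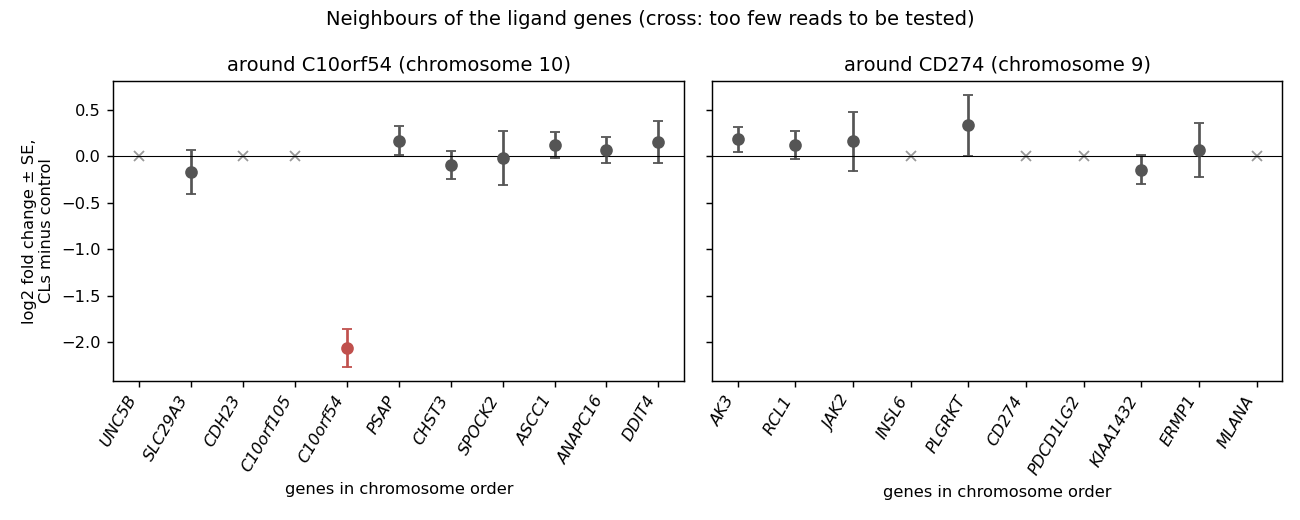
Log2 fold changes with standard errors of the genes around C10orf54 (left) and around CD274 (right), in chromosome order, with red for the B7 ligands and crosses for genes with too few reads. C10orf54 stands at -2.06 between neighbours that lie from -0.17 to 0.17.

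None of the tested relatives from the wider B7 and butyrophilin family passed the test. Of 15 relatives, 7 were tested and 0 were called. Their log2 fold changes ran from -0.44 to 0.28 around a median of -0.05. ERMAP, a red cell butyrophilin-like protein, had 101 counts in each control sample and 144, 118 and 132 in the CLs-treated samples, and it was the one relative whose groups were apart, as 5.34% of all tested genes were with higher CLs-treated samples. Its log2 fold change was 0.28 with an SE of 0.18 and, by edgeR, an adjusted p of 0.956. BTN2A1, a butyrophilin recognised by gamma delta T cells, was at -0.21 (SE 0.15), and NCR3LG1, the B7-H6 ligand of natural killer cells, was at -0.17 (SE 0.19). The 3 butyrophilins of the BTN3A cluster were higher in Control-3 than in the other controls. In CPM they were also highest in CLs-3 among the CLs-treated samples. BTN3A3, for example, had 19, 30 and 111 counts in the control samples and 41, 40 and 44 counts in the CLs-treated samples.

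Reported binding partners of VISTA were sparse. LRIG1, a membrane protein that restrains growth factor receptors, was the one tested gene of the 4, with 324, 377 and 395 counts in the control samples and 480, 353 and 474 in the CLs-treated samples, which overlapped after scaling. IGSF11 had at most 1 count in any library, SELPLG at most 6 and LGALS9 at most 10.

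Other molecules that tumour cells present to lymphocytes were given by a list of 24 genes, of which 12 were tested and 0 were called. Their median log2 fold change was -0.12. PVRL2, the nectin ligand of TIGIT and DNAM-1, had 1089, 1071 and 1179 counts in the control samples and 829, 869 and 687 in the CLs-treated samples. All 3 CLs-treated samples were below the controls. The log2 fold change was -0.58 with an SE of 0.14 and, by edgeR, an adjusted p of 0.258. DESeq2's Wald test called PVRL2, with an adjusted p of 0.0414. LGALS3, the lectin galectin-3, had a level of 62.9 ± 4.16 CPM in the control group and 82.4 ± 4.49 CPM in the CLs-treated group (SD, n = 3 in each), without overlap. Its log2 fold change was 0.39 with an SE of 0.13 and, by edgeR, an adjusted p of 0.513. CD47, the signal that keeps macrophages from engulfing a cell, had 562, 569 and 561 counts in the control samples and 1044, 621 and 607 counts in the CLs-treated samples, of which CLs-1 was the highest. Its log2 fold change was 0.30 (SE 0.15).

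TNFRSF14, the gene of HVEM, the ligand of BTLA, was too low to be tested and is named after its values were seen. It had 0, 2 and 0 counts in the control samples and 17, 13 and 1 in the CLs-treated samples. As for CD274, the reads were in CLs-1 and CLs-2, and CLs-3 was at the level of the controls. With no filter on low counts its adjusted p was 0.0547 in edgeR's quasi-likelihood test.

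Genes that control PD-L1, from the interferon receptor and its JAK and STAT proteins to the membrane protein CMTM6, did not pass the test. Of 24 genes 23 were tested and 0 were called, with a median log2 fold change of 0.04. STAT3, a transcription factor activated by cytokines, had 323.1 ± 29.1 CPM in the control group and 263.1 ± 6.27 CPM in the CLs-treated group (SD, n = 3 in each). Its groups were apart and its log2 fold change was -0.30 with an SE of 0.13 and, by edgeR, an adjusted p of 0.826. IRF9, a part of the interferon response complex, had 154, 174 and 333 counts in the control samples and 161, 142 and 176 counts in the CLs-treated samples. In CPM, Control-3 was the highest control and CLs-3 the highest CLs-treated sample, as in the BTN3A genes. The log2 fold change of IRF9 was -0.55 (SE 0.28). COPS5, a deubiquitinase subunit that stabilises PD-L1, was at 0.23 (SE 0.15).

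C10orf54 is a known target of the hypoxia factor HIF1A. The log2 fold change of HIF1A RNA was -0.07 (SE 0.16), while the activity of the factor was not measured and its part was not tested. GDF15, a stress cytokine, had 407, 647 and 660 counts in the control samples and 843, 1255 and 1209 in the CLs-treated samples, without overlap after scaling and in the opposite direction to C10orf54. Its log2 fold change was 0.88 with an SE of 0.25 and, by edgeR, an adjusted p of 0.331. DESeq2's Wald test called GDF15 with an adjusted p of 0.0414, and edgeR with no filter on low counts called it with 0.00698. PMAIP1, the gene of the death protein NOXA, was at 0.39 (SE 0.21). GDF15 and PMAIP1 are named for the small p-values they had in a list of 24 genes, of which 23 were tested and 0 were called, with a median log2 fold change of 0.09 and 8 genes below 0.

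VISTA has also been tied to BMP signalling in stem cells and to the membrane metalloproteinase MMP14. Of 14 such genes 13 were tested and 0 were called, with a median log2 fold change of -0.03. MMP2, a gelatinase activated by MMP14, had 20, 15 and 6 counts in the control samples and 204, 12 and 23 in the CLs-treated samples. CLs-1 alone was high in it, as it was in MMP14, with 62 counts against at most 8 in any other library. ID2, a target of BMP signalling, had 354, 368 and 74 counts in the control samples and 479, 604 and 268 in the CLs-treated samples, with Control-3 and CLs-3 low in their groups (log2 fold change 0.66, SE 0.46). SMAD7, an inhibitor of the pathway, was at -0.30 (SE 0.17).

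**Figure D4:**
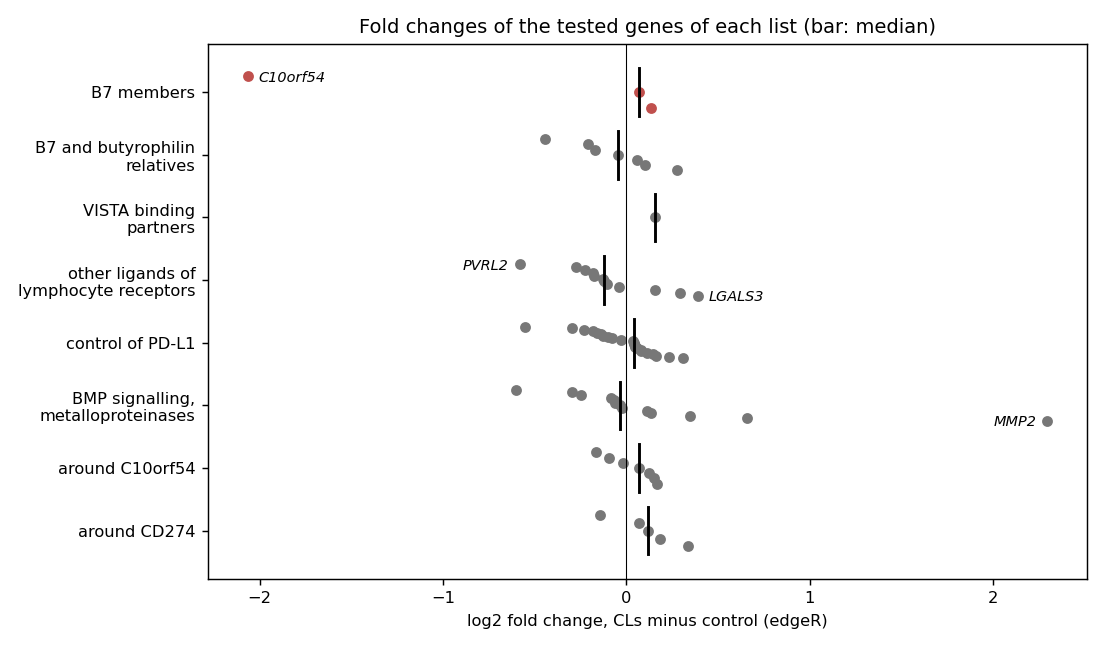
Log2 fold change between the groups of the tested genes of each list shown (points, with the median of each list as a black bar). C10orf54 at -2.06 lies to the left of every other gene shown, the 2 other tested B7 ligands are at 0.07 and 0.13, and MMP2 at 2.30 rests on CLs-1.

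Over the lists other than the cell type markers, 91 of 129 genes in the table were tested and 0 were called by edgeR's quasi-likelihood test, and DESeq2's Wald test called 2. An unadjusted p under 0.05 was found for 5 of the 91, a share near that of all tested genes, 874 of 15047. The median log2 fold change of the 91 was 0.04, beside 0.01 for the 15047 tested genes. Of the 91 genes, 6 had all CLs-treated samples above the controls and 2 had all below, against 5.34% and 6.18% of all tested genes.

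The genes whose levels over the 6 samples were most like that of C10orf54 were sought among the 15046 other tested genes by the Pearson correlation of log2 CPM. The correlation includes the difference between the groups, and 247 genes had a correlation above 0.9, so the order is a description. The gene most like C10orf54 was ABCB1, which encodes the drug efflux pump P-glycoprotein, with r = 0.998 and a Spearman correlation of 1. ABCB1 had 93, 118 and 131 counts in the control samples and 30, 27 and 31 in the CLs-treated samples. Its fold, 0.241, was close to the 0.239 of C10orf54. The deviations from the group means of the 2 genes had r = 0.974, a likeness already favoured by the choice of ABCB1 on these same samples.

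The other 4 genes followed C10orf54 in shape but not in size. KRT8P13, a pseudogene whose reads could be split with KRT8, had r = 0.997 and a fold of 0.533. ARHGAP23, a gene of a GTPase-activating protein, had r = 0.993 and a fold of 0.542. ESRP2, a splicing regulator of epithelial cells, had r = 0.990 and a fold of 0.745, and FSCN1, the actin-bundling protein fascin, had r = 0.989 and a fold of 0.786. By edgeR's quasi-likelihood test KRT8P13, ESRP2 and FSCN1 were not called, with adjusted p of 0.260, 0.347 and 0.637. ARHGAP23 was called with 0.0440, from which nothing is read, since the choice by likeness to C10orf54 favours lower levels after CLs. The Spearman correlation was 1 for KRT8P13 and ARHGAP23, 0.943 for ESRP2 and 0.886 for FSCN1, and 59 genes shared the highest value.

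**Figure D5:**
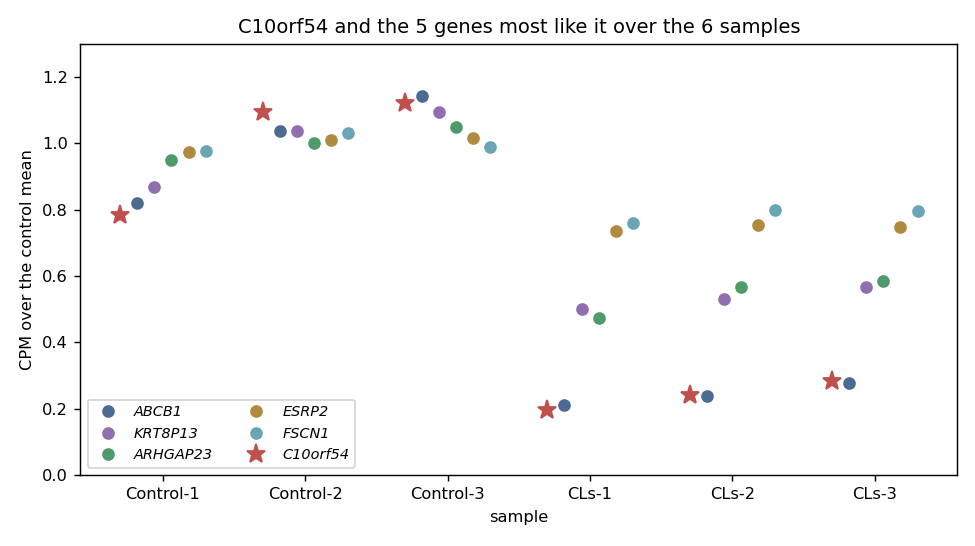
CPM relative to the control mean in each sample for C10orf54 (stars) and the 5 genes most like it (points). C10orf54 and ABCB1 lie together in all 6 samples, while KRT8P13, ARHGAP23, ESRP2 and FSCN1 keep a larger share of their control level in the CLs-treated samples.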

How the data were processed

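RNA was sequenced on the Ion Proton as single-end reads. Per the methods of the study, reads that passed quality filters were aligned by MapSplice. The deposited values are raw counts (whole reads for 40205 gene symbols), which the authors had not normalized. The submitters' processing notes name HTSeq 0.6.1 and hg19. Strand setting, annotation and reads that match several places are not given in the sources used here. The counts of all 6 samples were compared on condition alone with the quasi-likelihood test of edgeR (version 4.0.16, R 4.3.3), because EBSeq, the tool of the study, was not installed. filterByExpr left 15047 genes, scaled by TMM, with Benjamini-Hochberg adjustment over them. Standard errors were derived from the F statistic. The script was tested on simulated data, in which most changes near the fold criterion were not recovered, so a count of 0 called does not show that no gene changed.

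The members and lists were chosen with earlier results of these data known. Named were all 8 members, CDH23, the 5 genes most like C10orf54 (log2 CPM with a prior count of 2) and, from each list, called genes and the 3 with the smallest p. Other genes named as examples of a list were chosen after their values were seen, and so was the scaling by exon length. RIC1 and PLGRKT were each listed under an older symbol too, and the table held one symbol of each. The labels do not say that samples of a group came from separate cultures, so p-values measure the spread between these samples, which may be technical. Alternatives were DESeq2 1.42.0, 3 other scalings, 2 other filters, a block for the replicate number, omission of single samples, and calls by adjusted p without the fold criterion (above 1.5 or below 0.67 with adjusted p under 0.05). The values of 1 listed gene are not reported here.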

Additional observations from a re-analysis of the deposited data

How the results depend on the processing

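The log2 fold change of C10orf54, a gene chosen on this contrast, ran from -2.21 to -1.93 under the 13 alternatives. Leaving out 1 of 3 samples can hardly move it by more than the spread between replicates. Staying within that spread therefore decides nothing for those fits. CD276 and ICOSLG were not called under any of the 14 alternatives. VTCN1, CD80 and CD86 had no read and could not be called in any fit, and CD274 and PDCD1LG2 were too low for the main filter. Leaving out 1 sample turned the direction of CD276 (range -0.0074 to 0.14) and ICOSLG (-0.0843 to 0.25), without CLs-1 and without CLs-3, and both stayed uncalled. The number of genes called over the whole table, 2 up and 11 down, was 16 and 91 with DESeq2's Wald test, 58 and 113 with no filter, and 12 and 56 in the fit blocked on replicate number. It was 6 down with library totals only, and 1 up where at least 10 counts were asked in every sample. Leaving out 1 sample gave 1 to 3 up and 2 to 6 down. Of the listed genes, 0 in the main test, 2 were called by DESeq2 (PVRL2 and GDF15), 3 with no filter (GDF15, MMP2 and MMP14) and 1 with the block (GDF15). The cause was not tested. By their labels, samples with the same number share only that number, and whether they share more is not given. Their deviations from the group means had correlations of 0.111, 0.0987 and 0.305, and each sample correlated best with its own number. Of the 5 genes most like C10orf54, 4 stayed among the first 5 with library totals and 3 shared the highest Spearman correlation. Depth limits CD274, PDCD1LG2, VTCN1, CD80 and CD86, at or near the floor of 3 counts in most libraries.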
